A study of Homo sapiens with 4 samples.

Results

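The 47 interferon-stimulated and RNA-sensing genes described here are a small group within the 15575 genes of a count table from U251 cells, an established human glioblastoma (GBM) cell line. Members were found by gene symbol, and each of the 47 had a single entry. They fall into 10 sensors, 3 ISGF3 and IRF transcription factors, 4 genes of the IFIT family, 21 other effectors, 5 genes of the ISG15 system and 4 genes grouped as PARPs. The transcriptome was profiled after lentiviral knockdown of PRMT3, an arginine methyltransferase, to ask which genes depend on it in GBM cells. U251 cells carrying a lentiviral control shRNA (labelled pGreen_Ctrl, here Ctrl) were compared with U251 cells carrying a lentiviral PRMT3 shRNA (PRMT3-KD). Each group had 2 libraries, and the study describes the comparison as made after 72 h. All cells were grown in DMEM with fetal bovine serum, and both groups had received a virus and a hairpin. Cells without virus were not analysed here, so effects of PRMT3 loss and of the PRMT3 virus or its hairpin itself cannot be told apart. The study describes 2 PRMT3 hairpins. Which was used here, and whether both PRMT3-KD libraries carried the same one, is not given in the sources used here. Nothing says that the 2 libraries of a group came from separate cultures, so p-values measure the spread between these libraries, which may be technical.

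Interferon-stimulated genes are the antiviral program of vertebrate cells. Sensors such as RIG-I (DDX58) and MDA5 (IFIH1) bind foreign or misplaced double-stranded RNA in the cytosol and signal through MAVS to switch on type I interferon. Secreted interferon then acts through its receptors and JAK kinases on ISGF3, a complex that includes STAT2 and IRF9 and binds the interferon-stimulated response element (ISRE) in the promoters of its targets. Interferon gamma acts instead chiefly on the gamma-activated site (GAS). The targets include the sensors themselves, effectors that block viral entry, translation or budding, and the ubiquitin-like protein ISG15 with the enzymes that attach and remove it. In tumour cells the same genes can be active without infection.

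Since the ISRE is the binding site of ISGF3, the promoters of the members were searched for it. Promoters of RefSeq (GRCh38.p14), from 250 bases before to 50 bases after the gene start, were found for 38 of the 47 members. The core GAAANNGAA, searched on both strands and with overlapping matches counted, was present in 22 of the 38, or 57.9%. It was present in 8.11% of all 35116 promoters of this length and in 6.47% of the 14953 promoters of genes tested here. For the members the first listed promoter of each gene was searched. The shares over all promoters instead count every listed promoter, so a gene can count more than once there. The following stretches before the gene start are shown because they belong to members that rose in PRMT3-KD cells. Each is written 5′ to 3′ on the strand of the gene, and capitals mark the matches, which read TTCNNTTTC where the core lies on the other strand.
ISG15 (chr1:1013369-1013419, plus strand, bases -128 to -78): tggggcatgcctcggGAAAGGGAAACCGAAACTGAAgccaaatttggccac
BST2 (chr19:17405731-17405775, minus strand, bases -145 to -101): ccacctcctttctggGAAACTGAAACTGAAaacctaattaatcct
IFIT1 (chr10:89392493-89392544, plus strand, bases -130 to -79): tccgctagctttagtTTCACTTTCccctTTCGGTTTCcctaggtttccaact
IFIT3 (chr10:89327827-89327899, plus strand, bases -170 to -98): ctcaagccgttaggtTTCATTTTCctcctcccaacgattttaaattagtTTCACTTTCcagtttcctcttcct
IFI6 (chr1:27672262-27672363, minus strand, bases -171 to -70): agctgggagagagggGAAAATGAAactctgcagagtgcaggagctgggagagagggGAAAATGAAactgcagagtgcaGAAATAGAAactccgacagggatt
IFITM1 (chr11:313985-314023, plus strand, bases -55 to -17): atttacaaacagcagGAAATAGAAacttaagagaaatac
IFIH1 (chr2:162318685-162318863, minus strand, bases -179 to -1): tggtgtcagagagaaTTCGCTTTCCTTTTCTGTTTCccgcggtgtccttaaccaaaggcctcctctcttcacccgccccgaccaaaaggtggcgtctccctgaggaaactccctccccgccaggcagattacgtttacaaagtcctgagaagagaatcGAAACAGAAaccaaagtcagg

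In ISG15 the 3 matches overlapped in a single run, and in BST2 there were 2 overlapping matches. The sequences below are shown because they carry the same core but belong to members that did not pass the threshold.
HERC5 (chr4:88456980-88457069, plus strand, bases -139 to -50): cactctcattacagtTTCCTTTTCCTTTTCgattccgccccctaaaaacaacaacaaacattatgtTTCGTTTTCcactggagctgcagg
IFIT5 (chr10:89414509-89414567, plus strand, bases -59 to -1): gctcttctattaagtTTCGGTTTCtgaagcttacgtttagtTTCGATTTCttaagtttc
OAS3 (chr12:112938316-112938473, plus strand, bases -158 to -1): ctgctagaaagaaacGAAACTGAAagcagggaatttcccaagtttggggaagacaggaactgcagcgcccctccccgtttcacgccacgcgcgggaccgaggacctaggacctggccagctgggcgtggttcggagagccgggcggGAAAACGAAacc

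The core did not separate members that passed the threshold from those that did not. It was found in 8 of 13 promoters (61.5%) of members past the threshold and in 14 of 25 promoters (56.0%) of the other members. All 3 IFIT promoters held it, whereas none of the 3 promoters of STAT2, IRF9 and IRF1 did. The GAS letters TTCNNNGAA, which read the same on both strands, were found in 8 of 38 members (21.1%), among them IRF9 and IRF1, against 7.66% of all promoters. They were present in 3 of 13 members past the threshold and in 5 of 25 others. A match is a description of the letters and does not show that a factor binds there. The promoter coordinates are on GRCh38.p14, while all gene coordinates given with the counts are on GRCh37, the build of the files, and the 2 were not mixed.

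**Figure D1:**
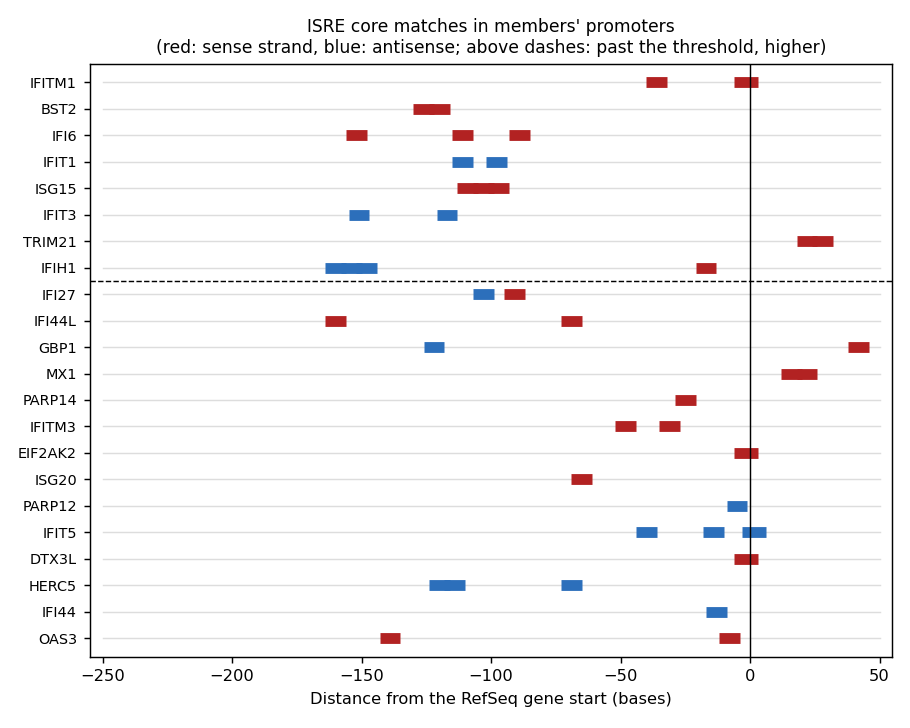
Positions of ISRE core matches (boxes of 9 letters) along the RefSeq promoters of the 22 members that hold them, in bases from the gene start on the x axis, red for the sense and blue for the antisense strand. The 8 members above the dashed line passed the threshold as higher in PRMT3-KD, and the 14 below did not, and no match in either set starts farther out than base -164.

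The libraries held 27405629 and 27221921 Ctrl counts and 24804250 and 29756313 PRMT3-KD counts. PRMT3 itself had 535 counts in each Ctrl library and only 77 and 45 after knockdown. The Ctrl libraries differed by little more than counting error, with 1.41 as the ratio of chi-square to degrees of freedom (counting error gives 1) and a biological coefficient of variation of 0.0107. The same values were 66.0 and 0.204 for the PRMT3-KD libraries. The main edgeR test takes the same spread for both groups of a gene. Its p-values thus rest on a spread pooled over groups that differ this much. The cells expressed markers of a glial and mesenchymal GBM line at a summed 8574 to 8591 CPM (counts scaled to library size with TMM factors) in Ctrl and 7477 to 7918 CPM in PRMT3-KD. By Ctrl mean, VIM (5394 CPM), CD44 (1957) and NES (783) were the highest of them. SOX9 (244) and SOX2 (171) followed, and PTPRZ1 (17.9), GFAP (13.7) and S100B (2.08) were low. Of these 8 markers SOX9 fell, the other 7 did not pass the threshold, and 6 had a log2 fold change under 0. GFAP, the astrocyte filament protein, had 363 and 392 Ctrl counts and 32 and 153 PRMT3-KD counts (log2 fold change -2.03, edgeR adjusted p = 0.0958). Of 8 leukocyte markers 6 were listed, and together they had 186 and 176 Ctrl counts against 94 and 117 PRMT3-KD counts. Most of these were counts of CSF1R (146 and 149 against 63 and 98), which did not pass the threshold. The leukocyte-defining PTPRC was at 2 to 7 counts a library. Of 4 endothelial markers 3 were listed, at a summed 27.5 to 29.6 CPM in Ctrl and 19.6 to 37.9 CPM in PRMT3-KD. Among them KDR fell by 0.86 on the log2 scale (edgeR adjusted p = 0.0428), while CDH5 had 140 and 146 against 129 and 722 counts and did not pass. Of 4 epithelial markers KRT8 and KRT18 rose, and their sum went from 37.8 and 39.9 to 85.0 and 111 CPM. The epithelial-defining CDH1 was at 0 to 4 counts. The part of these markers in the results that follow was not tested.

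Of the 47 members, all of which passed the filter on low counts, 15 rose in PRMT3-KD cells and none fell. The threshold was an adjusted p under 0.05 (edgeR's quasi-likelihood test, Benjamini-Hochberg over 13172 genes) with a change of over 1.5-fold. The members that rose were the sensors IFIH1, DDX58 and OAS2, the ISGF3 subunit IRF9, IFIT1, IFIT2 and IFIT3, the effectors IFI6, BST2, TRIM21, SAMHD1 and IFITM1, and ISG15, HERC6 and UBE2L6. Their changes lay between 1.56-fold and 3.85-fold. As a share, 31.9% of the members rose, where 4.97% of all genes tested did, and 0 members fell, where 5.97% of all genes did. At an unadjusted p under 0.05 there were 25 members higher and 0 lower, where 19.1% of all genes tested were higher and 18.5% lower. The log2 fold change was over 0 in 39 members and under 0 in 8. Its median was 0.55, against 0.0055 over all genes tested. Members were chosen with earlier results of these data known. These shares, and the like ones below, thus describe the list and do not test it. Together the members took 0.137% and 0.136% of the counts of the Ctrl libraries and 0.172% and 0.169% of those of the PRMT3-KD libraries. In these bulk libraries, more RNA per cell and more cells with such RNA cannot be told apart.

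Both PRMT3-KD libraries lay above both Ctrl libraries in 29 members, which is 61.7% of them, where this held for 33.3% of all genes tested. Both lay below in 3 members (TRIM25, PML and RNF213), where 33.8% of all genes did. The groups overlapped in the other 15. In 17 members each PRMT3-KD library was over 1.5-fold above the Ctrl mean, against 5.83% of all genes. The 15 calls depended on having both Ctrl libraries: with either left out, 0 genes of the whole table passed in edgeR (1842 and 1868 had an unadjusted p under 0.05), and the adjusted p of the 15 members lay between 0.0972 and 0.446. Their log2 fold changes then lay between 0.59 and 2.11, and 18 and 19 members had an unadjusted p under 0.05. PRMT3 itself did not pass then either (edgeR adjusted p = 0.0764 and 0.0604). With a PRMT3-KD library left out, the close Ctrl libraries alone set the spread, and 3066 (without library 1) and 2989 (without library 2) genes of the whole table passed in place of 1441, so passing then says little about the 15. Without library 1, DDX58 and SAMHD1 were under 1.5-fold.

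**Figure D2:**
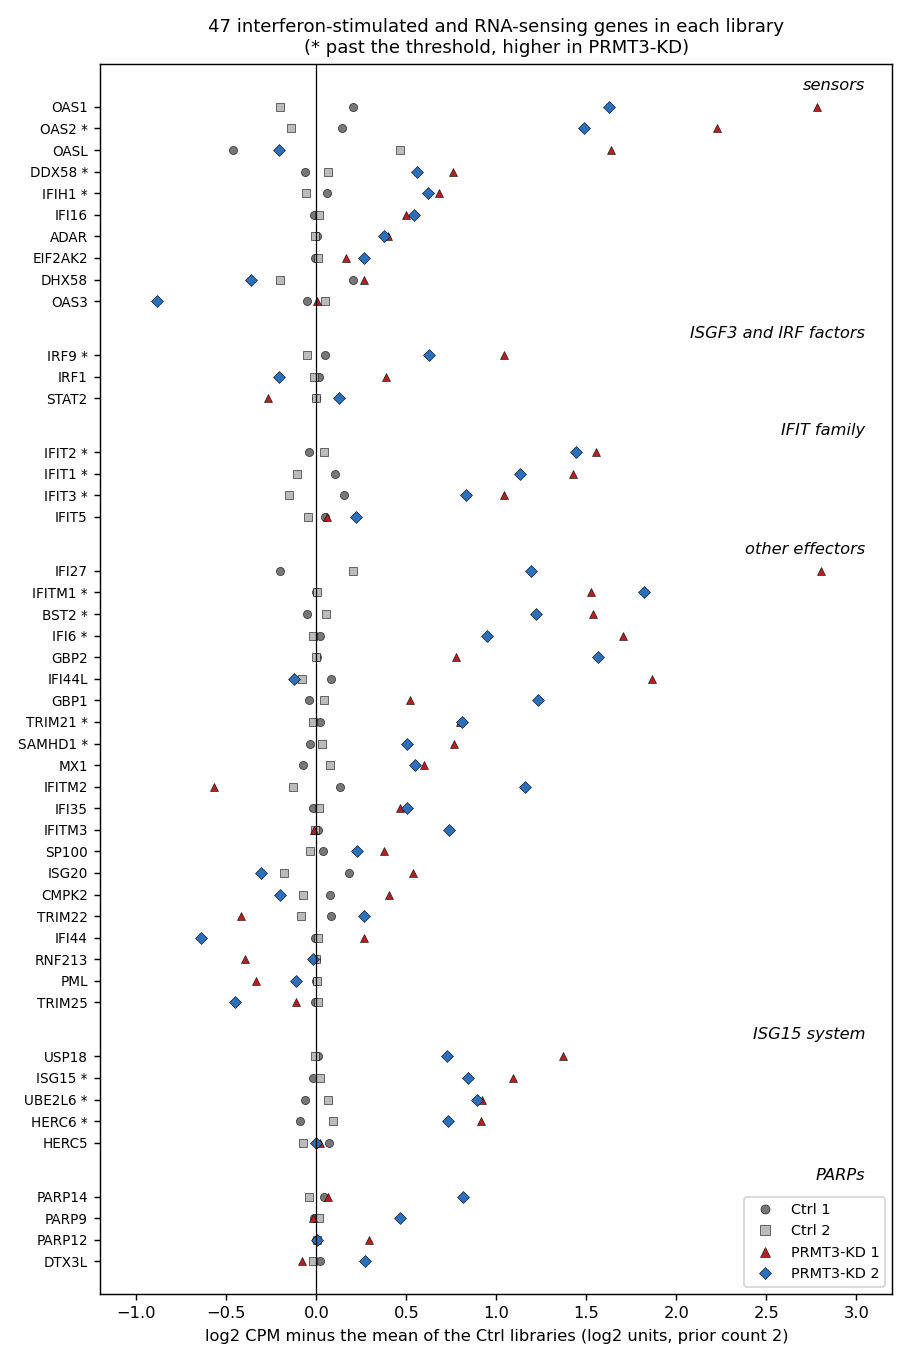
Log2 CPM of each of the 47 members in the 4 libraries relative to the mean of the Ctrl libraries, grouped by role and ordered by fold change within a role. Symbols stand for libraries and asterisks mark the 15 members past the threshold. The Ctrl symbols sit close to 0 and lie widest apart in OASL, whereas the 2 PRMT3-KD symbols lie together for IFIT2 or TRIM21 and far apart for OASL, IFI44L or IFITM2.

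Among the sensors, the RIG-I-like helicases IFIH1 and DDX58 rose, while DHX58 (LGP2), a regulator of both, did not pass the threshold. IFIH1 (ENSG00000115267, MDA5, which binds long double-stranded RNA) had 231 and 211 Ctrl counts and 327 and 350 PRMT3-KD counts. This was 8.0 ± 0.471 against 12.6 ± 0.390 CPM (SD, n = 2 each). The log2 fold change was thus 0.65 (standard error, SE, of 0.124, edgeR adjusted p = 0.0374). DDX58 (ENSG00000107201, RIG-I, which binds short RNA with a 5′ triphosphate) had 216 and 234 Ctrl counts and 351 and 342 PRMT3-KD counts. Its change was of like size, 0.66 on the log2 scale (SE 0.14, edgeR adjusted p = 0.0446), and the groups of both helicases did not overlap. DHX58 had 50 and 37 against 48 and 34 counts, with overlapping groups and a log2 fold change of -0.03 (SE 0.346, edgeR adjusted p = 0.956).

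EIF2AK2, ADAR and IFI16 were the most abundant sensors, and the knockdown libraries of each lay close together. EIF2AK2 encodes PKR, the kinase that halts translation on binding double-stranded RNA. It had 2759 and 2778 Ctrl counts and 2852 and 3425 PRMT3-KD counts, a log2 fold change of 0.22 (edgeR adjusted p = 0.117). ADAR, which edits adenosine to inosine in double-stranded RNA and so hides it from the sensors, had 7563 and 7449 against 9096 and 10007 counts. Its log2 fold change of 0.39 (SE 0.0660, edgeR adjusted p = 0.0317) passed the test but was under 1.5-fold. The same was true of IFI16, a nuclear DNA sensor, with 1982 and 2004 against 2590 and 2983 counts and a log2 fold change of 0.52 (SE 0.0701, edgeR adjusted p = 0.0219). For EIF2AK2, ADAR and IFI16 both PRMT3-KD libraries were above both Ctrl libraries in CPM, as in 33.3% of all genes tested.

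The OAS genes encode enzymes that make 2′-5′-linked oligoadenylates when they bind double-stranded RNA. They did not all change alike. OAS2 (ENSG00000111335) rose from 41 and 33 Ctrl counts to 165 and 110 PRMT3-KD counts, a log2 fold change of 1.95 (SE 0.345, edgeR adjusted p = 0.0333). OAS1 went from 10 and 7 counts to 64 and 31 counts, a log2 fold change of 2.53 that did not pass (SE 0.574, edgeR adjusted p = 0.0514). In both genes library 1 of the knockdown was the higher, and both knockdown libraries were above both controls. OAS3, the most abundant of the 4 at 3.68 CPM per kb of transcript in Ctrl, had 650 and 692 Ctrl counts and 618 and 373 PRMT3-KD counts (log2 fold change -0.38, SE 0.309, edgeR adjusted p = 0.428). OASL, an OAS-like protein without that enzyme activity, had 16 and 32 against 69 and 20 counts (log2 fold change 0.96, SE 0.762, edgeR adjusted p = 0.416). OASL was the 1 member whose Ctrl libraries were over 1.5-fold apart, as in 2.78% of all genes tested.

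Of the transcription factors, IRF9, the DNA-binding subunit of ISGF3, rose, and its partner STAT2 did not pass the threshold. IRF9 (ENSG00000213928) had 323 and 299 Ctrl counts and 592 and 495 PRMT3-KD counts, or 11.3 ± 0.557 against 20.4 ± 4.16 CPM (SD, n = 2 each). The increase was 0.85 on the log2 scale (SE 0.176, edgeR adjusted p = 0.0429). STAT2 had 1362 and 1353 counts in Ctrl, and the PRMT3-KD libraries lay on either side of these with 1036 and 1522 counts (log2 fold change -0.06, edgeR adjusted p = 0.806). IRF1, a transcription factor induced mainly by interferon gamma, likewise straddled the Ctrl values, with 1009 and 984 against 1201 and 886 counts (log2 fold change 0.12, edgeR adjusted p = 0.722).

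The IFIT family was the group with the highest share past the threshold, 3 of 4. IFIT proteins bind viral RNA and initiation factor eIF3 and so block translation. IFIT2 (ENSG00000119922) went from 127 and 134 to 356 and 369 counts, the smallest adjusted p among the members (log2 fold change 1.51, SE 0.134, edgeR adjusted p = 0.0154). IFIT1 (ENSG00000185745) went from 315 and 270 to 725 and 661 counts (log2 fold change 1.29, SE 0.156, edgeR adjusted p = 0.0198). IFIT3 (ENSG00000119917) went from 232 and 186 to 395 and 382 counts (log2 fold change 0.94, SE 0.168, edgeR adjusted p = 0.0340). In all 3 the groups were far apart and the PRMT3-KD libraries differed by under 1.5-fold. IFIT5 had the highest Ctrl level of the family per kb, 5.78 CPM per kb against 1.39 to 3.17, and did not pass. Its counts were 667 and 620 in Ctrl and 616 and 771 in PRMT3-KD, a log2 fold change of 0.14 (SE 0.107, edgeR adjusted p = 0.394). Exons of LIPA on the other strand overlap 1.5% of the exon bases of IFIT2 and 1.86% of those of IFIT3. Whether the counting used strand is not given in the sources used here, and LIPA had a log2 fold change of 0.42 (edgeR adjusted p = 0.0961).

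Among the 21 other effectors, 5 passed the threshold as higher, and the 5 act at different steps. BST2 (ENSG00000130303, tetherin), which holds budding virus at the cell surface, went from 446 and 477 Ctrl counts to 1235 and 1107 PRMT3-KD counts, or from 16.7 ± 0.880 to 43.8 ± 6.82 CPM (SD, n = 2 each). The increase was 1.39 on the log2 scale (SE 0.143, edgeR adjusted p = 0.0178). IFITM1 (ENSG00000185885), a membrane protein that blocks viral entry, went from 36 and 36 to 99 and 136 counts (log2 fold change 1.73, SE 0.225, edgeR adjusted p = 0.0211). IFI6 (ENSG00000126709), a small hydrophobic protein, went from 313 and 303 to 927 and 613 counts (log2 fold change 1.38, SE 0.278, edgeR adjusted p = 0.0414). BST2 and IFITM1 differed by under 1.5-fold between the knockdown libraries, whereas IFI6 was over 1.5-fold higher in library 1 than in library 2. TRIM21 (ENSG00000132109), a ubiquitin ligase and antibody receptor of the cytosol, rose from 249 and 240 to 393 and 443 counts (log2 fold change 0.81, SE 0.109, edgeR adjusted p = 0.0219). SAMHD1 (ENSG00000101347), which degrades dNTPs, rose from 1268 and 1318 to 2024 and 1887 counts (log2 fold change 0.64, SE 0.115, edgeR adjusted p = 0.0343). SAMHD1 had the smallest change of the 15, close to the 1.5-fold limit.

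The guanylate-binding proteins GBP1 and GBP2, GTPases induced chiefly by interferon gamma, did not pass, although both knockdown libraries were above both controls. GBP1 had 909 and 956 Ctrl counts and 1232 and 2253 PRMT3-KD counts (log2 fold change 0.92, SE 0.253, edgeR adjusted p = 0.0731). GBP2 had 757 and 748 against 1189 and 2292 counts (log2 fold change 1.23, SE 0.278, edgeR adjusted p = 0.0514). IFI27, a mitochondrial protein of the IFI6 family, had 14 and 19 against 116 and 41 counts (log2 fold change 2.31, SE 0.673, edgeR adjusted p = 0.0822). These 3 genes had wide gaps between the knockdown libraries. The remaining effectors had log2 fold changes from -0.27 (TRIM25, the ubiquitin ligase of RIG-I) to 1.20 (IFI44L). MX1, a dynamin-like GTPase and often a leading interferon-stimulated gene, was near the limit of detection, with 17 and 19 against 26 and 28 counts (log2 fold change 0.62, edgeR adjusted p = 0.192). RNF213, a giant ubiquitin ligase and the second most abundant member by CPM, had 3208 and 3186 against 2238 and 3241 counts (log2 fold change -0.20, edgeR adjusted p = 0.373).

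In the ISG15 system 3 of 5 genes passed the threshold as higher, among them the modifier itself. ISG15 (ENSG00000187608) went from 219 and 223 Ctrl counts to 436 and 409 PRMT3-KD counts, or from 8.01 ± 0.144 to 15.8 ± 1.95 CPM (SD, n = 2 each). The increase was 0.98 on the log2 scale (SE 0.141, edgeR adjusted p = 0.0237). UBE2L6 (ENSG00000156587), its conjugating enzyme, went from 133 and 144 to 243 and 266 counts (log2 fold change 0.91, SE 0.141, edgeR adjusted p = 0.0265). HERC6 (ENSG00000138642), a HECT-type ligase, went from 124 and 140 to 230 and 226 counts (log2 fold change 0.83, SE 0.165, edgeR adjusted p = 0.0408). HERC5, the main ISG15 ligase of human cells, had 418 and 375 against 370 and 407 counts, with overlapping groups. Its log2 fold change was 0.01 (SE 0.112, edgeR adjusted p = 0.966), and its sign turned with the scaling, at -0.022 on library totals. USP18, which removes ISG15 and dampens the interferon receptor, had 122 and 120 against 291 and 207 counts (log2 fold change 1.09, SE 0.264, edgeR adjusted p = 0.0576).

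None of the 4 PARPs passed, although the IFIT, OAS and ISG15 groups each had members that did. PARP9 and its partner DTX3L, a ubiquitin ligase, together with PARP12 and PARP14 had log2 fold changes between 0.10 and 0.49, with edgeR adjusted p of 0.250 to 0.631. PARP14, the most variable of them, had 1350 and 1264 Ctrl counts and 1257 and 2368 PRMT3-KD counts, so that on the CPM scale library 1 was barely above the controls and library 2 well above them. At an unadjusted p under 0.05 there were 0 PARPs higher and 0 lower.

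**Figure D3:**
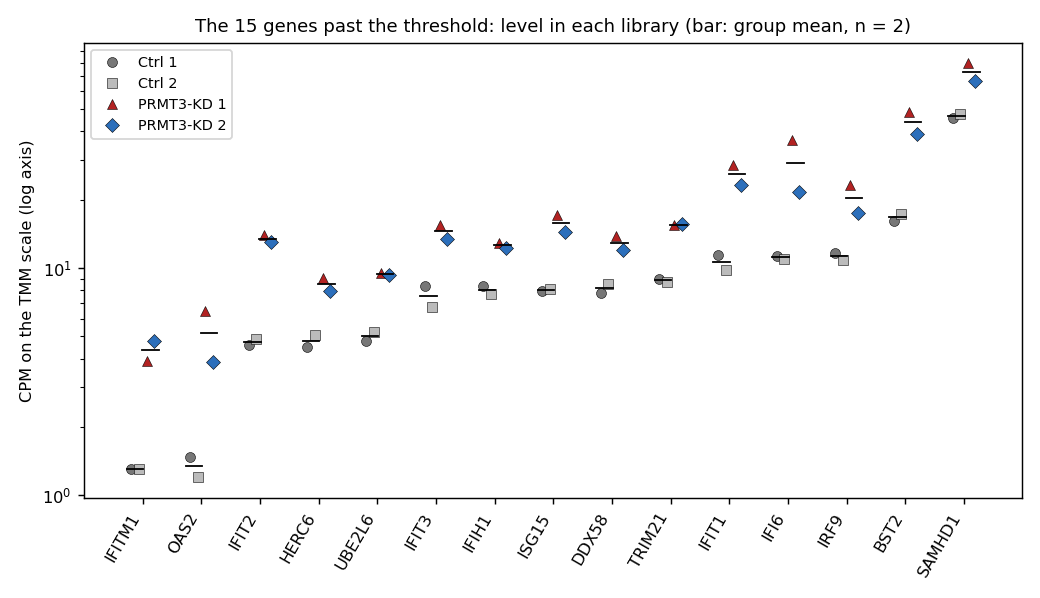
CPM on a log axis in each library for the 15 members past the threshold, ordered by Ctrl level from IFITM1 (1.30 CPM) to SAMHD1 (46.8 CPM), with a bar at the mean of the 2 libraries of a group. In each gene both PRMT3-KD symbols sit above both Ctrl symbols, which follows in part from how the genes were picked.

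With 2 other tools, 5 more members passed. DESeq2, the tool in the methods of the study, passed 20 members as higher, where 6.65% of all genes with an adjusted p were higher. Limma-voom, run with group weights for the variance, also passed 20, where 5.98% of all genes were higher. Both lists held the 15 members of the edgeR test, and the additional genes were GBP1, GBP2, IFI27, OAS1 and USP18 in both. No member was lower in either. On library totals without TMM factors 10 members passed, of which 9 were among the 15 and the other was GBP2, while DDX58, HERC6, IFI6, IFIH1, IRF9 and SAMHD1 did not.

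The knockdown libraries differed from each other in which members were highest. In 13 members library 1 was over 1.5-fold above library 2, where this held for 7.20% of all genes tested. These were OAS1, OAS2, OAS3, OASL, IFI27, IFI44, IFI44L, IFI6, ISG20, USP18, DHX58, IRF1 and CMPK2. In 6 members library 2 was over 1.5-fold above library 1, where this held for 9.09% of all genes. These were GBP1, GBP2, IFITM2, IFITM3, PARP14 and TRIM22. The widest gap among the members was in IFI44L, with 71 and 63 counts in Ctrl, 229 in PRMT3-KD library 1 and 63 in library 2. IFITM2 had the widest gap the other way, with 90 and 74 counts in Ctrl, 50 in library 1 and 190 in library 2. Thus in IFI44L and OASL library 1 alone was above the controls, as it was in IRF1, IFI44, DHX58, ISG20 and CMPK2. In IFITM2 and IFITM3 library 2 alone was above them, as it was in TRIM22, STAT2, DTX3L and PARP9.

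All 4 OAS genes belonged to the members higher in library 1, and both GBP genes to those higher in library 2. Of the 15 members past the threshold, 13 differed by under 1.5-fold between the knockdown libraries, the exceptions being OAS2 and IFI6. This held for 28 of all 47 members and for 11026 of the 13172 genes tested. The test favours genes whose libraries lie close together, so the closeness of the 15 follows in part from how they were picked. The median member was 0.52 above the Ctrl mean on the log2 scale in library 1 and 0.54 above it in library 2. PRMT3 was at 3.03 CPM in library 1 and 1.58 CPM in library 2. Each comparison has 1 library on each side and was not tested, and both share the Ctrl libraries. Whether the 2 libraries carried the same hairpin is not known. A difference between hairpins and one between replicates thus cannot be told apart.

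**Figure D4:**
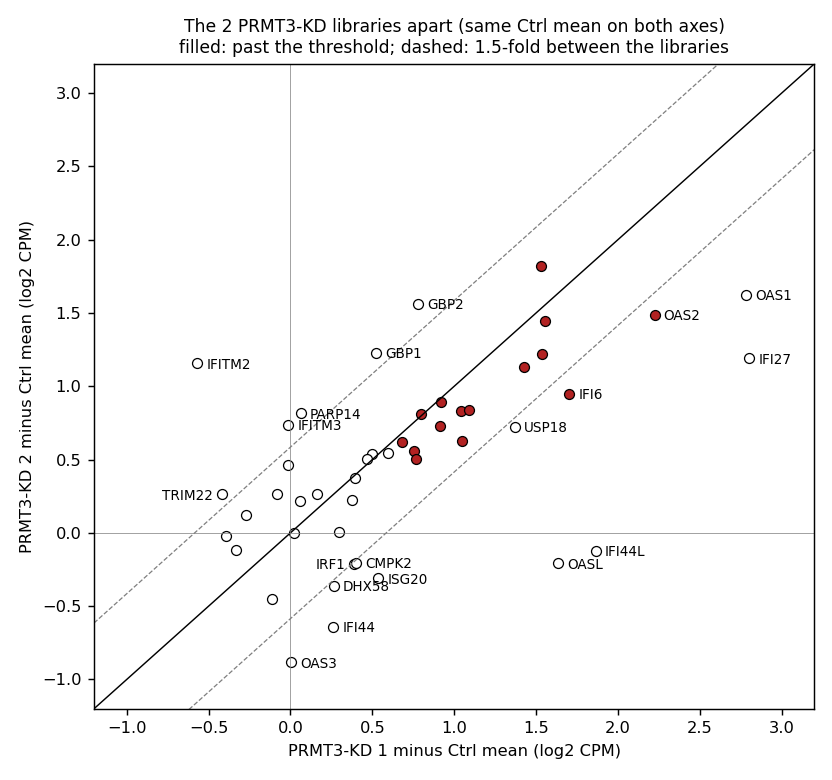
Log2 CPM of each member in PRMT3-KD library 1 (x axis) and library 2 (y axis), each minus the same Ctrl mean, with filled points for the 15 members past the threshold and names for members over 1.5-fold apart between the libraries. Points below the lower dashed line are the 13 members higher in library 1, such as IFI44L and OASL, and points above the upper line are the 6 higher in library 2, such as IFITM2.

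The members form 7 groups of neighbours in the genome, defined by gaps of at most 100000 bases, and 18 members lie in them. In the chromosome 10 group, which runs from IFIT2 (GRCh37 chr10:91043451-91069028) through IFIT3 and IFIT1 to IFIT5 (chr10:91174325-91181362), the first 3 rose and IFIT5 had the value given above. On chromosome 12, OAS3 (chr12:113375856-113414265) lies between OAS1 (chr12:113343661-113371024) and OAS2 (chr12:113416200-113449528). It had a log2 fold change of -0.38 where its neighbours had 2.53 and 1.95. On chromosome 4, HERC6 (chr4:89299891-89364249) rose by 0.83 and HERC5 (chr4:89378270-89427314), next to it on the same strand, was at 0.01. On chromosome 11, IFITM1 (chr11:310041-315272) rose by 1.73 between IFITM2 at 0.55 and IFITM3 at 0.41. On chromosome 1, IFI44L and IFI44, on the same strand, had 1.20 and -0.12 with standard errors of 0.697 and 0.313. In the other groups, GBP1 with GBP2 and PARP9 with DTX3L, the standard error bars of neighbours overlapped. Differences between neighbouring genes were not tested.

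**Figure D5:**
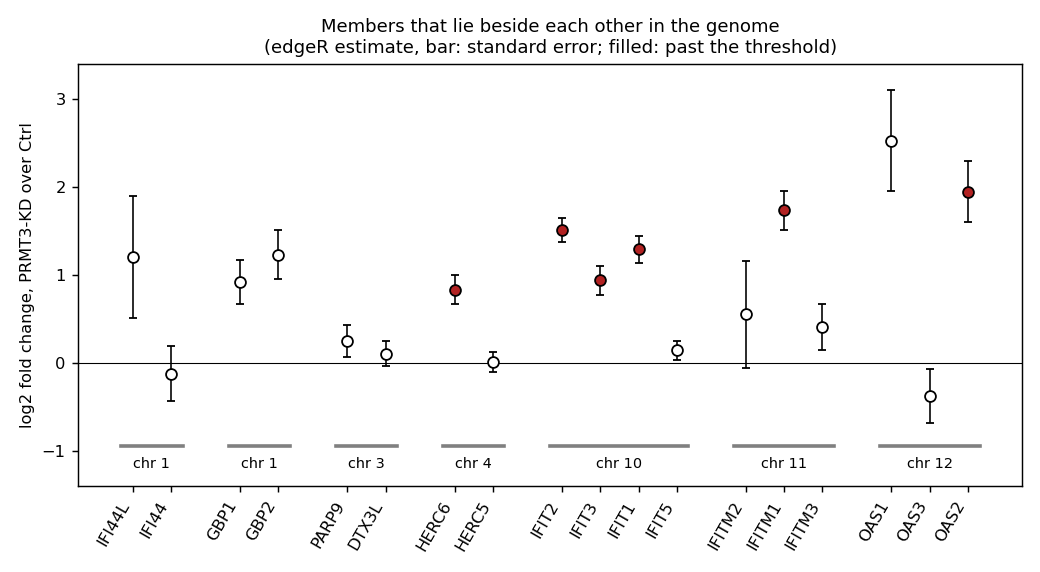
Log2 fold change (PRMT3-KD over Ctrl, y axis) with its standard error for the 18 members that lie beside another member, in genome order within each group, with filled points past the threshold. IFIT5, HERC5 and OAS3 lie near or below 0 beside neighbours at 0.83 to 2.53.

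Near-identical copies limit some of these values, since reads can be split between them. The distinct 50-base stretches of the canonical transcript of each member were searched for in transcripts of genes at other loci. Other exons and copies outside annotated transcripts were not searched. The share found there was 27.0% for USP18 (mostly in USP41), 20.8% for IFITM3, 15.8% for IFITM1, 14% for GBP1 (mostly in the pseudogene GBP1P1) and 10.03% for IFITM2. The counts of these 5 members are uncertain, and how reads with several matches were counted is not given in the sources used here. The share does not bound the error, which also depends on the level of the other copy. IFITM1 had 36 and 36 Ctrl counts, where IFITM3, with which it shares such stretches, had 1273 and 1248. IFIT1, IFIT2, BST2, ISG15, IFI6 and TRIM21 had at most 1.11% of such stretches. Exons of CMPK2 and RSAD2 on the other strand overlap over 351 bases (8.0% of the exon bases of CMPK2), those of PARP9 and DTX3L over 139 bases, and those of MX1 and TMPRSS2 over 3.12% of the exon bases of MX1.

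Compared per kb of the canonical transcript, the Ctrl levels of the members ranged from 0.187 CPM per kb for CMPK2 to 74.7 CPM per kb for IFITM3. After IFITM3 came ADAR (41.1 CPM per kb), IFI16 (25.0), BST2 (16.7), PML (16.4) and IFI6 (13.7). At the low end, OAS1 (0.189), MX1 (0.235), OASL (0.266) and OAS2 (0.290) stood next to CMPK2. In PRMT3-KD cells BST2 stood at 43.7 and IFI6 at 35.8 CPM per kb, beside IFI16 at 35.9 CPM per kb. PML, level with BST2 in Ctrl, stood at 14.1 CPM per kb in PRMT3-KD. The Ctrl libraries of BST2 and PML overlapped on this scale, as did those of CMPK2 and OAS1, so neighbours in the order are not told apart. The order rests on 1 transcript per gene.

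The wider interferon pathway was examined in 82 other gene symbols, of which 56 were tested. TMEM173 and STING1 name the same gene, as do MB21D1 and CGAS. Of the 56, 3 rose (5.36%) and 2 fell (3.57%), shares near those of all genes tested (4.97% and 5.97%). Of the 13 tested adaptors and kinases of RNA and DNA sensing, TANK, a TBK1-binding adaptor, rose by 0.64 (edgeR adjusted p = 0.0328). PRKRA (PACT), an activator of PKR, fell by 0.77 (log2 scale) (edgeR adjusted p = 0.0252). MAVS, the adaptor of RIG-I and MDA5, had 4998 and 4906 against 3152 and 4978 counts and did not pass (log2 fold change -0.26, edgeR adjusted p = 0.350). The median of this list was -0.11, against 0.55 for the members.

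Of the 10 receptors and JAK-STAT genes, STAT3 rose by 0.76 (edgeR adjusted p = 0.0201). IL10RB, the second receptor chain of interferon lambda and IL-10, fell by 2.37 (log2 scale), from 561 and 621 to 84 and 140 counts (edgeR adjusted p = 0.0165). The interferon receptor chains IFNAR1 and IFNAR2 had log2 fold changes of 0.05 and -0.25. No interferon gene had enough counts to be tested. Of 10 listed, 2 were in the table, IFNE with 1 to 4 counts a library and IFNL3 with 0 to 2, and IFNB1 and IFNG were not analysed here. None of 7 tested negative regulators passed the threshold, SOCS1 and SOCS3 included.

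Of 26 other interferon-stimulated genes tested, 1 rose (DDX60L, a relative of a RIG-I cofactor, by 0.64, edgeR adjusted p = 0.0262) and none fell, a share of 3.85% higher against 4.97% of all genes. At an unadjusted p under 0.05 there were 6 higher and 3 lower. The median of this list was 0.09, so it stood closer to the median of all genes (0.0055) than to that of the members (0.55). RSAD2 (viperin), singled out after its counts were seen, was not tested because of low counts and had 1 and 2 counts in Ctrl, 76 in PRMT3-KD library 1 and 1 in library 2. It thus followed the pattern of IFI44L and OASL, with library 1 alone above the controls.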

How the data were processed

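RNA of U251 cells with control shRNA (2 libraries) and PRMT3 shRNA (2 libraries) was sequenced on an Illumina HiSeq. The authors aligned reads to hg19 with TopHat and deposited unnormalized whole-number counts per gene from Cufflinks. The labels also list CASAVA and DESeq2. Versions, the annotation, the use of strand and filters are not given in the sources used here. Groups and replicate numbers come from the sample titles.

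The 15576 entries held 1 duplicate, which was removed. Counts were used as deposited in R 4.3.3 with edgeR 4.0.16 (filterByExpr with minimum count 10 and minimum total 15, TMM factors of 0.955 to 1.02, glmQLFit, glmQLFTest, Benjamini-Hochberg over 13172 genes). The threshold was an adjusted p under 0.05 and over 1.5-fold. With 2 libraries a group, exact permutation (two-sided) can reach no less than p = 0.333, so none was run. CPM is on the TMM scale and log2 CPM has a prior count of 2. Totals of 24804250 to 29756313 counts limit genes with few counts: 8 members had under 50 counts in both Ctrl libraries. Alternatives were DESeq2 1.42.0, limma 3.58.1 (voom with group weights), other scalings and filters, the replicate block, each library left out, and other fold thresholds. The tests were tried on simulated data with known changes first. The check they had to pass was the sign of the change, and false calls under unequal spread are not reported here.

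Gene loci and transcript lengths came from GENCODE 44 lifted to GRCh37, which holds 99.9% of the identifiers, and promoters from RefSeq on GRCh38.p14, read with Python 3.11.15. Members and lists were chosen with earlier results of these data known. Every member is accounted for. Counts in all libraries are given for members past the threshold, sensors, transcription factors and the 3 members of highest CPM, and of the other pathway genes those past the threshold are named. A few genes of the pathway lists are not reported here and were left out of the list counts.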

Additional observations from a re-analysis of the deposited data

How the results depend on the processing

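The number of members past the threshold as higher was 15, and it was 20 with DESeq2, 20 with limma-voom with group weights, 16 with the replicate block, 10 on library totals, and 15 with upper-quartile factors, with no filter on low counts and with at least 10 counts in every library. It was 17 with no fold threshold and 6 at over 2-fold. None was lower under these alternatives. All 15 had a log2 fold change over 0 under the 7 other tests, scalings, filters and the block. Whether same-numbered libraries were paired is not given in the sources used here. The deviations of same-numbered libraries had a correlation of 0.0379. This cannot settle pairing, since the Ctrl libraries differed by little more than counting error. With the replicate block GBP1, GBP2, OAS1 and USP18 were added and DDX58, HERC6 and IFIH1 lost, and 1464 genes of the whole table passed in place of 1441. With any 1 library left out, the number of members higher lay between 0 and 21, that of members lower between 0 and 2, and that of genes past the threshold between 0 and 3066. The counts of 0 are those without a Ctrl library, where the PRMT3-KD libraries alone set the spread, and the highest are those without a PRMT3-KD library, where the Ctrl libraries alone do. Without PRMT3-KD library 1 the members lower were OAS3 and IFI44, and without library 2 the member lower was IFITM2. Of all genes, 2278 passed with no fold threshold and 512 at over 2-fold, and 45.5% of the genes past the threshold were higher, against 40.9% on library totals.

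The median log2 fold change of the members, 0.55, was 0.52 with limma-voom, 0.50 on library totals, 0.53 with at least 10 counts in every library (46 members) and 0.52 with the replicate block, and 0.52 to 0.54 with any 1 library left out. The sign turned on library totals for HERC5 alone, at -0.022. With a library left out it turned for members near 0 or far apart between the PRMT3-KD libraries, whose log2 fold changes ranged from -0.39 to 0.26 (DHX58), -0.30 to 1.63 (OASL), -0.27 to 0.13 (STAT2), -0.21 to 0.38 (IRF1), -0.64 to 0.26 (IFI44), -0.13 to 1.89 (IFI44L), -0.36 to 0.57 (ISG20), -0.43 to 0.26 (TRIM22), -0.60 to 1.17 (IFITM2), -0.017 to 0.74 (IFITM3), -0.23 to 0.43 (CMPK2), -0.064 to 0.083 (HERC5), -0.021 to 0.47 (PARP9) and -0.085 to 0.27 (DTX3L). The cause of these changes was not tested. With 2 libraries a group, a change missed by the test is not shown to be absent, above all for members with few counts.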

Other observations

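Several interferon pathway genes did not pass the threshold but had an adjusted p under 0.1. Of the receptor and signalling genes, IFNGR2, the second chain of the interferon gamma receptor, had a log2 fold change of 0.44 (edgeR adjusted p = 0.0439). TYK2, the kinase bound to the interferon receptor chain IFNAR1, had 3758 and 3818 against 2672 and 2587 counts (log2 fold change -0.48, edgeR adjusted p = 0.0410). JAK1 had 4834 and 4980 against 5645 and 7591 counts (log2 fold change 0.46, edgeR adjusted p = 0.0585). PTPN1, a phosphatase that acts on JAK kinases, had a log2 fold change of 0.56 (edgeR adjusted p = 0.0215).

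Of the other interferon-stimulated genes, LGALS3BP, a secreted glycoprotein, had a log2 fold change of 0.36 (edgeR adjusted p = 0.0387) and CNP, a myelin-associated phosphodiesterase, one of -0.36 (edgeR adjusted p = 0.0488). DDX60, the relative of DDX60L, had 128 and 114 against 189 and 170 counts (log2 fold change 0.61, edgeR adjusted p = 0.0937), and NMI, a partner of IFI35, had 145 and 147 against 196 and 215 counts (log2 fold change 0.53, edgeR adjusted p = 0.0682). SP140L had a log2 fold change of 0.37 (edgeR adjusted p = 0.0575). IFI35, which is among the 47, had 126 and 128 against 162 and 186 counts (log2 fold change 0.49, edgeR adjusted p = 0.0909). SP100, also among the 47, had 1009 and 955 against 1173 and 1180 counts (log2 fold change 0.30, edgeR adjusted p = 0.0973). The chemokine CXCL10 was at 0 and 1 Ctrl counts and 5 and 2 PRMT3-KD counts, too few to test.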
